A study of Mus musculus with 4 samples.

Results

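The genes for glutamate and GABA receptors were followed across brain sections of control and rNLS8 mice. Members were taken by symbol: every listed gene whose name begins with Gria, Grik, Grid or Grm and a digit, with Grin1, Grin2 or Grin3, or with Gabra, Gabrb, Gabrg, Gabrd or Gabbr. This gave 42 of the 19465 genes in the files, 27 on the glutamate side and 15 on the GABA side. The families held 4 AMPA, 5 kainate, 3 delta, 7 NMDA and 8 metabotropic glutamate receptor genes, 13 GABA-A genes and 2 GABA-B genes. One of the 3 genes counted with the delta family, Grid2ip (delphilin), encodes a scaffold protein and no subunit. The data were Visium spatial transcriptomes of formalin-fixed, paraffin-embedded brain sections of 5 µm, in which probes report RNA as unique molecular identifiers (UMI) per gene and spot. There were 2 control and 2 rNLS8 sections from mice of 11 weeks, in each group 1 labelled female (replicate 1) and 1 labelled male (replicate 2). Both groups carry the treatment label of doxycycline (Dox) withdrawal, 3 weeks before collection, and the control genotype is named only as control. rNLS8 mice are a model of TDP-43 disease in which doxycycline holds back a transgene for human TDP-43 without a working nuclear localisation signal, driven in neurons by the neurofilament heavy chain promoter. The series title concerns cortical excitability, so cortex was taken apart from the whole section. The labels do not say whether the sections of a group came from separate animals, so a p-value here reflects the spread between sections, which may be technical.

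Glutamate opens AMPA, kainate and NMDA receptors, cation channels built from subunits that set conductance, calcium entry and kinetics, and it acts on metabotropic receptors that signal through G proteins. GABA opens GABA-A receptors, pentameric chloride channels usually built from alpha and beta subunits with a gamma or delta subunit, and it acts on the GABA-B receptor, a heterodimer of the Gabbr1 and Gabbr2 products that couples to potassium channels and adenylyl cyclase. The balance of these receptors on pyramidal neurons and interneurons is a main determinant of how readily cortical circuits fire.

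The sections held 19064969 and 23869254 UMI in control and 28056089 and 17627577 in rNLS8, over 2656 to 3962 spots under tissue, with a median of 5074 to 9772 UMI per spot. Regions came from clustering the spots of the 4 sections together, and each took its name from the genes that led it and from region markers. Cortex took 779 to 986 spots per section and striatum 386 to 777. A cluster led by the immune genes Cst7 and Cxcl10, counted with middle cortex, held 20 and 13 spots in control and 194 and 378 in rNLS8. Tardbp gave 0 UMI in both controls and 197 and 138 in rNLS8. Whether its probes read the mouse or the human transcript is not stated, so these counts are not taken as a level of mouse Tardbp. Y-linked genes gave 0 UMI per 1000000 in control replicate 1, 107 in control replicate 2, and 137 and 139 in rNLS8 replicates 1 and 2, so the library labelled rNLS8 female carried Y-linked counts. Over the spots of the cortex, the 10 general neuronal markers summed to 11780 and 12070 UMI per 1000000 in control and 9603 and 9260 in rNLS8; none passed the test, and the median log2 fold change was -0.26. The 10 excitatory markers summed to 10730 and 10260 against 8476 and 8854, with 1 called lower, and the 12 inhibitory markers to 3356 and 3730 against 2564 and 2587, with 1 called lower. The 10 microglial markers summed to 361 and 478 against 918 and 1402, with C1qa, C1qb, C1qc and Trem2 called higher. No marker of these lists was at 0, and their part in the results below was not tested. A spot holds several cells, so fewer cells of a type and less RNA per cell cannot be told apart in any comparison that follows.

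Gria3, which encodes the GluA3 subunit of AMPA receptors, was the receptor gene that fell in the cortex. Over cortical spots it stood at 549 and 384 counts per 1000000 (CPM, scaled by trimmed mean of M values) in the controls, and at 178 and 205 CPM in rNLS8. Both rNLS8 sections lay below both controls. Gria3 fell by 1.28 on the log2 scale (SE 0.20), with an adjusted p of 0.0450 by edgeR's quasi-likelihood test with Benjamini-Hochberg adjustment over all genes. The count of called receptor genes in cortex was 1 of 36 tested, beside 155 of 12329 genes (1.26%) over all genes and 0.73% called in the lower direction. Gria3 lies on the X chromosome (chrX:41400819-41678601, GRCm38, protein-coding, ENSMUSG00000001986). Without control replicate 1, the section with no Y-linked counts, the cortical log2 fold change was -1.01. That fit leaves 1 control section, so its spread comes from the rNLS8 sections alone, and an effect of sex was not tested. The call did not hold under upper-quartile scaling (adjusted p = 0.0574), without the cluster led by immune genes (-1.24, adjusted p = 0.0645), or without rNLS8 replicate 1 or 2 (adjusted p = 0.178 and 0.192, edgeR), while the fold stayed between -1.55 and -1.01 in all 13 alternatives.

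The same gene was lower in every region examined. In upper cortex Gria3 read 605 and 399 CPM in control against 183 and 197 in rNLS8, a log2 fold change of -1.40 (SE 0.22, edgeR adjusted p = 0.00814). Middle cortex gave 533 and 402 against 172 and 184 CPM (-1.39, SE 0.18, edgeR adjusted p = 0.0107), and deep cortex gave 513 and 361 against 176 and 185 CPM (-1.275, SE 0.19, edgeR adjusted p = 0.0266). In the region called the glial surface after its leading genes Myoc, Lcat and Gfap, Gria3 stood at 303 and 282 against 174 and 136 CPM (-0.92, SE 0.23, edgeR adjusted p = 0.0450). Gria3 thus fell in each of these 4 regions, without overlap between groups. The call did not hold in upper cortex without rNLS8 replicate 1 (edgeR adjusted p = 0.0806), nor at the glial surface under upper-quartile scaling (0.0560), or without rNLS8 replicate 1 or 2 (edgeR adjusted p = 0.210 and 0.957). Over all genes, 2.43% were called in upper cortex (1.71% lower), 3.74% in middle cortex (2.25% lower), 1.3% in deep cortex (0.846% lower) and 1.07% at the glial surface (0.773% lower). In the striatum Gria3 read 382 and 309 CPM in control and 173 and 169 in rNLS8 (-1.01, SE 0.16), which missed the threshold with an edgeR adjusted p of 0.0564, where 0.45% of genes were called and 0.245% were called lower; by DESeq2 the adjusted p was 1.93e-05. Over whole sections it read 433 and 320 against 164 and 181 CPM (-1.13, SE 0.19, edgeR adjusted p = 0.167), where 0 of 13444 genes (0%) were called; by DESeq2 the adjusted p was 1.37e-05.

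Gria3 did not pass the test in the remaining regions. Claustrum read 529 and 367 CPM in control against 200 and 289 CPM in rNLS8 (-0.87). The meninges read 355 and 264 against 143 and 169 CPM (-0.96), and the fibre tracts 248 and 149 against 130 and 114 CPM (-0.70). Even in the fibre tracts, where Gria3 was lowest in control, the groups did not overlap. Basal forebrain read 254 and 231.5 against 127 and 143 CPM (-0.87), and the region led by septal and basal forebrain genes 321.5 and 265 against 160 and 228 CPM (-0.63). Calls over all genes were few there, at 0.144% in claustrum, 0.211% in meninges, 0.349% in fibre tracts, 0.01% in basal forebrain and 0% in the last. In 10 of 10 regions both rNLS8 sections were below both controls; among all genes, 18.4% to 26.6% were lower without overlap in a given region. Regions of a section share their library, so these are not 10 independent observations. The difference between the cortical and striatal effect on Gria3 was -0.30 on the log2 scale (SE 0.11), with an adjusted p of 0.270 by an edgeR interaction term.

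**Figure D1:**
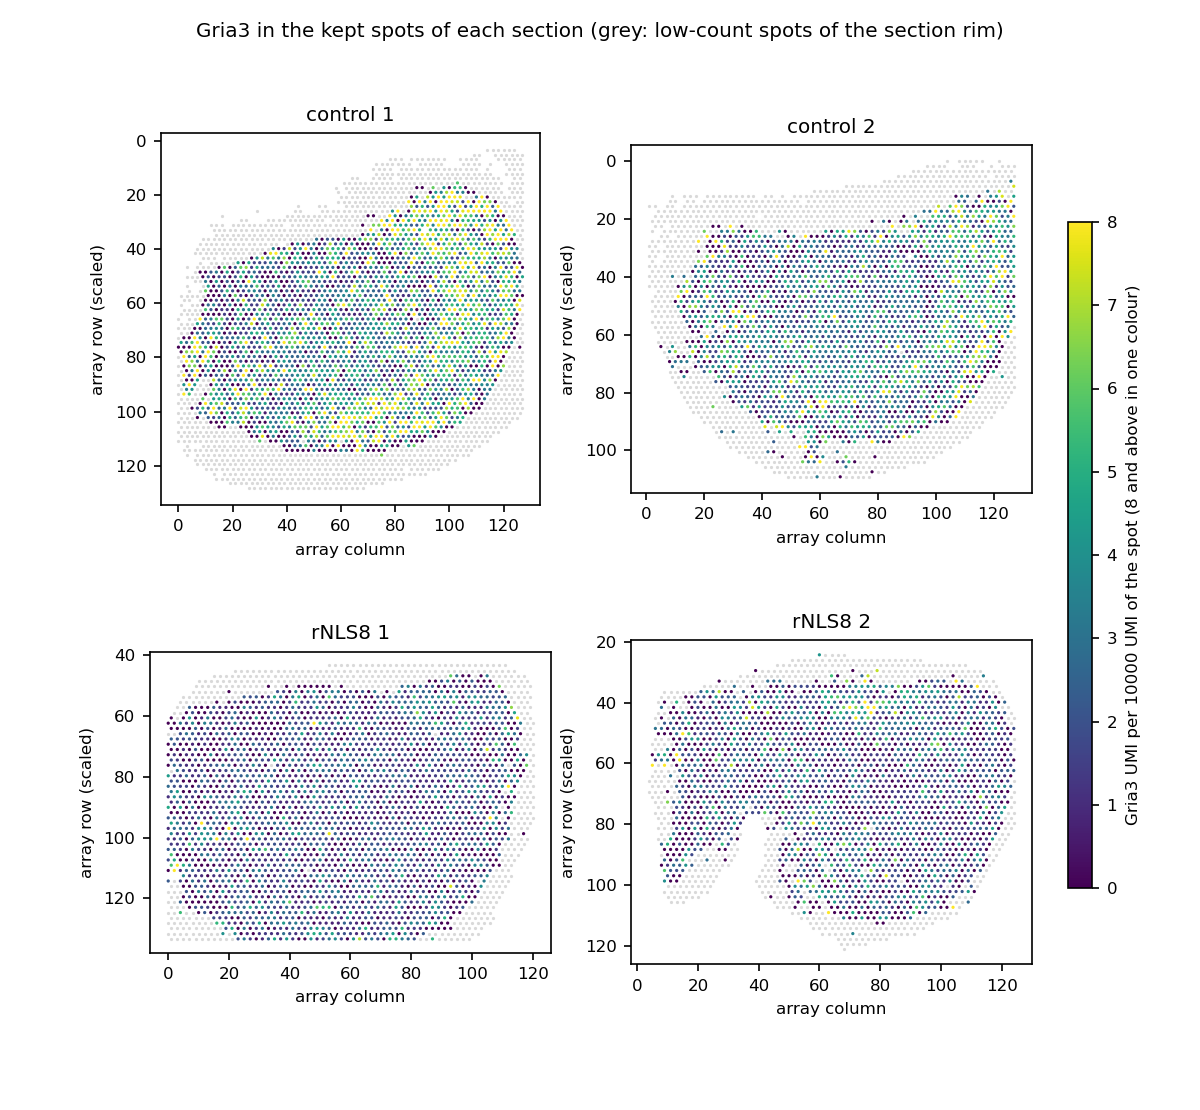
Gria3 UMI per 10000 UMI in each spot of the 4 sections, drawn at array positions, with rim spots in grey and the colour capped at 8 per 10000. The controls carry 230 and 65 spots at the cap and the rNLS8 sections 7 and 15.

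The map of Gria3 by spot gives the same order of sections. Outside the rim of low-count spots the median was 3.49 and 2.83 Gria3 UMI per 10000 in control and 1.47 and 1.58 in rNLS8. Spots with at least 8 per 10000 made up 8.74% and 2.9% of such spots in control and 0.27% and 0.71% in rNLS8. By region, control levels in unscaled UMI per 1000000 were highest in upper cortex (557 and 391) and middle cortex (487 and 391), which overlapped each other, claustrum (497 and 359) and deep cortex (478 and 351.5). Striatum had 359 and 302, and the lowest were the fibre tracts with 235 and 145.

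None of the other 3 AMPA receptor genes was called. Gria4, encoding GluA4, a subunit prominent in fast-spiking interneurons, stood at 66.7 and 77.2 CPM in cortex of control and at 50.8 and 52.6 in rNLS8. Its groups did not overlap, but the log2 fold change of -0.48 (SE 0.15) had an edgeR adjusted p of 0.152. Gria1 (GluA1) overlapped, at 255 and 340.5 against 317.5 and 306 CPM. Gria2, whose edited product makes AMPA receptors nearly impermeable to calcium, read 49.3 and 94.4 CPM in control and 102.5 and 85.9 in rNLS8. Control replicate 1 stood apart from the other 3 sections in Gria2. The fold was 0.39 (SE 0.29, edgeR adjusted p = 0.483) with all sections, -0.01 without control replicate 1, and 0.90 without control replicate 2.

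Ratios of AMPA subunits were taken within each section. The log2 ratio of Gria3 to Gria2 UMI in cortex was 3.48 and 2.02 in control and 0.80 and 1.26 in rNLS8, a difference of -1.72 without overlap. The ratio of Gria4 to Gria2 was 0.43 and -0.29 against -1.01 and -0.71 (difference -0.93), and that of Gria1 to Gria2 was 2.37 and 1.85 against 1.63 and 1.83 (difference -0.38). All 3 ratios were lower in both rNLS8 sections. Without control replicate 1, the section low in Gria2, the differences were -0.997, -0.569 and -0.119 in that order, and without control replicate 2 they were -2.45, -1.29 and -0.638. An exact two-sided permutation test of 2 against 2 sections can go no lower than p = 0.333, the value each of them gave, so none can pass the threshold. Summed over the 4 genes, AMPA receptor UMI were 844 and 882 per 1000000 in control cortex and 682 and 683 in rNLS8.

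Promoter sequence (RefSeq, GRCm38.p6) was matched for 27 members through 35 windows. Gria2 and Gria4, the AMPA genes described above with a promoter in the table, are shown as the last 100 bases before the start with each CG in capitals, together with Gabra5, the GABA receptor gene called in middle cortex. Gria2 is at chr3:80802836-80802935, Gria4 at chr9:4796235-4796334 and Gabra5 at chr7:57510060-57510159, each on the minus strand. The stretches of Gria2 and Gabra5 lie inside the annotated genes (chr3:80681450-80804227 and chr7:57407669-57591016), so they precede internal starts. That of Gria4 lies directly before the annotated gene.
Gria2: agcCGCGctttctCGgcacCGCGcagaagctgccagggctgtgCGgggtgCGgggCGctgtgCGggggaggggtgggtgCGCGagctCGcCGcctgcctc
Gria4: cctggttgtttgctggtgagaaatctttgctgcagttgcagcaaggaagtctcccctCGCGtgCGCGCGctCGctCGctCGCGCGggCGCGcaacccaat
Gabra5: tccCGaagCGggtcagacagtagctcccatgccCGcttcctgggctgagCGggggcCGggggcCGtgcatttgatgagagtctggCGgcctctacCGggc
The stretches hold 13, 12 and 8 CG pairs. The median member window held 9 CG pairs in the 250 bases before the start, and the median window of all 27025 genes held 6. The SP1 GC box GGGCGG, searched on both strands, was in 48.6% of member windows and 32.7% of all windows. The cAMP response element TGACGTCA was in none of the member windows and in 1.55% of all. The letters are a description of the windows only.

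**Figure D2:**
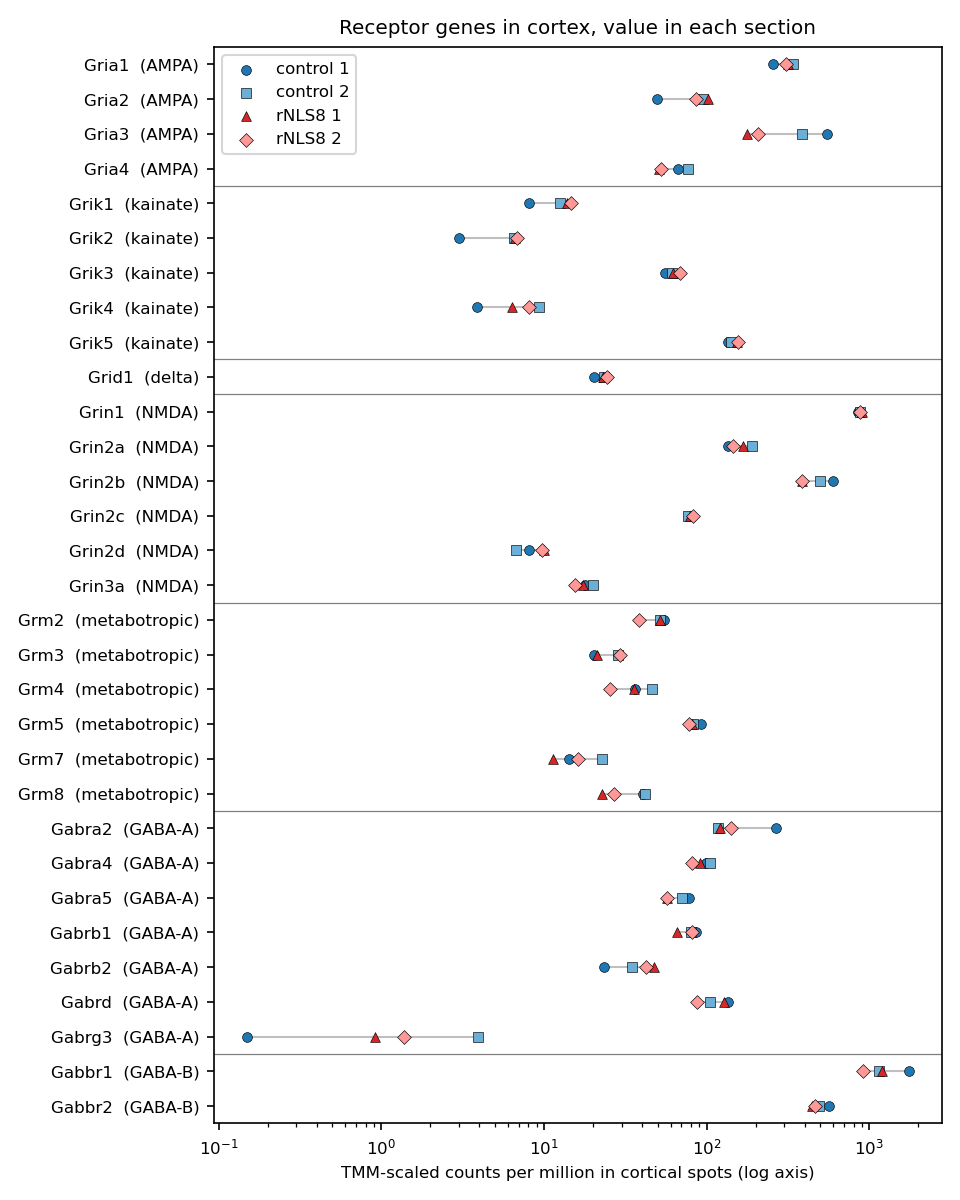
Levels of 31 of the tested receptor genes over cortical spots in each section, in CPM on a log axis, with control and rNLS8 sections as separate points. Gria3 shows both rNLS8 points (178 and 205) below both control points (549 and 384), and Gria2 and Gabra2 show control replicate 1 apart from the other sections.

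No kainate or delta receptor gene was called. All 5 kainate genes had a cortical fold above 0, with a median of 0.17, and in 4 of them both rNLS8 sections were above both controls, beside 28.9% of all genes. Grik1 (GluK1) read 8.07 and 12.5 CPM in control and 13.9 and 14.6 in rNLS8, a log2 fold change of 0.46 (SE 0.27, edgeR adjusted p = 0.384). Grik3 (GluK3) read 55.8 and 61.4 against 61.9 and 68.7 CPM (0.16, SE 0.15). In the striatum the kainate family's median was -0.10, so the common sign was not seen there. Grid1, encoding a delta receptor that binds cerebellins at synapses, read 20.2 and 23.5 CPM in control and 23.1 and 24.4 in rNLS8, with overlap (0.12, edgeR adjusted p = 0.747). Grid2ip had 17, 54, 22 and 12 UMI in the 4 whole sections and had too few counts for a test in any single region.

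Among the NMDA receptor genes tested in cortex, Grin2b had the lowest fold. It encodes GluN2B, the subunit of slow NMDA currents that is abundant early in life and persists in the forebrain. In cortex it read 598 and 494 CPM in control and 383 and 385 in rNLS8, without overlap, and the log2 fold change of -0.51 (SE 0.15) had an edgeR adjusted p of 0.138. Striatum gave 636 and 521 against 406 and 369 CPM (-0.58, edgeR adjusted p = 0.177). Both rNLS8 sections were below both controls in 9 of 10 regions, all but basal forebrain, beside 18.4% to 26.6% of all genes in a given region. Regions of a section share their library, so these counts are not independent. Grin1, the obligatory GluN1 subunit, differed by less than the spread between sections at 846 and 881 against 895 and 880 CPM in cortex (0.04, SE 0.14). Grin2a, encoding the faster GluN2A subunit, also overlapped, at 136 and 189 against 166 and 145 CPM. The log2 ratio of Grin2a to Grin2b was higher in both rNLS8 sections over the whole section, by 0.59 (exact permutation p = 0.333), and overlapped in cortex. The whole-section difference was 0.24 without control replicate 1 and 0.931 without control replicate 2.

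The remaining NMDA genes are given by region as well as by group. Grin2c, a subunit also found in astrocytes, was highest at the glial surface of control, at 261 and 171 UMI per 1000000, against 63.0 and 68.9 in deep cortex. Its cortical CPM were 79.8 and 76.4 in control and 79.1 and 82.3 in rNLS8 (0.05). Grin2d, a subunit of interneurons and basal forebrain cells, had 18.4 and 24.4 UMI per 1000000 in basal forebrain of control and 3.98 and 2.12 in fibre tracts, the widest spread over regions of all members with a level of at least 10. These levels rest on 31 and 35 UMI in basal forebrain and on 2 and 1 UMI in fibre tracts, so the width of the spread is uncertain. In cortex Grin2d read 8.07 and 6.71 against 10.0 and 9.79 CPM (0.43, edgeR adjusted p = 0.390). Grin3a, encoding a subunit that lowers calcium entry, read 17.8 and 19.99 against 17.4 and 15.5 CPM in cortex and 9.00 and 10.5 against 15.9 and 12.5 CPM in striatum. The difference between those effects was -0.79 on the log2 scale (SE 0.23), and the interaction term had an edgeR adjusted p of 0.124, and passed only without a filter on low counts (0.0479). In that comparison 0.654% of 12699 genes were called and 0 members were, with 10.9% of genes at an unadjusted p under 0.05. Grin3b had 12, 15, 13 and 5 UMI in the whole sections.

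Metabotropic glutamate receptors are grouped by sequence and coupling: Grm5 couples to phospholipase C, and Grm2, Grm3, Grm4, Grm7 and Grm8 inhibit adenylyl cyclase. Grm8, a presynaptic receptor of the latter kind, stood at 40.4 and 41.5 CPM in control cortex and at 22.8 and 26.9 in rNLS8. The groups did not overlap, and the log2 fold change of -0.72 (SE 0.17) had an edgeR adjusted p of 0.0875. In middle cortex it read 40.2 and 39.2 against 22.4 and 24.9 CPM (-0.75, edgeR adjusted p = 0.0783). Grm8 was lower without overlap in 7 of the 9 regions where it was tested. Among all genes, 18.4% to 26.6% were lower without overlap in a given region, and regions of a section share their library. Grm5 and Grm4 were also lower without overlap in cortex, with folds of -0.14 and -0.43. This rested on the scaling, whose factors in cortex were 0.918 and 0.985 in control and 1.052 and 1.051 in rNLS8. In unscaled UMI per 1000000 the groups overlapped, at 84.2 and 81.4 against 84.9 and 81.3 for Grm5. For Grm4 the unscaled values were 33.5 and 45.4 against 37.6 and 26.7. Grm3 (20.2 and 28.5 against 21.1 and 29.1 CPM) and Grm7 (14.2 and 22.8 against 11.4 and 16.2 CPM) overlapped. Grm2, an autoreceptor of glutamate terminals, overlapped too, at 54.6 and 51.7 against 51.9 and 38.6 CPM. In control, Grm2 was highest in upper cortex, with 69.4 and 69.3 UMI per 1000000, followed by middle cortex with 58.6 and 57.6. Deep cortex had 28.75 and 26.55, and striatum, the lowest region, had 14.5 and 8.30. Its cortical effect minus its striatal effect was -0.74 (SE 0.26, edgeR interaction adjusted p = 0.224). That difference ran from -1.29 without rNLS8 replicate 1 to -0.31 without control replicate 2. It passed the test without a filter on low counts. It also passed without rNLS8 replicate 1 and without control replicate 1, but such fits leave 1 section in a group. Against all other spots it passed in 2 of 5 alternatives, among them that without rNLS8 replicate 1, which has the same limit. Grm6, known from retinal bipolar cells, had 0 UMI in every section, which allows up to 0.107 to 0.17 UMI per 1000000 by a floor of 3 counts per section; this covers counting error only.

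Of 10 GABA-A receptor genes tested in cortex, 8 had a fold below 0 and none was called; the call in this family was Gabra5 in middle cortex. Gabra5 encodes the alpha 5 subunit of extrasynaptic receptors that carry tonic inhibition. In middle cortex it read 79.2 and 75.9 CPM in control and 44.3 and 42.1 in rNLS8, and it fell by 0.84 on the log2 scale (SE 0.17, edgeR adjusted p = 0.0369). Middle cortex is the name given to clusters whose best marker list was that for all cortical layers, so it is not a defined layer. Gabra5 was not called in deep or upper cortex. Deep cortex gave 81.5 and 91.4 against 86.4 and 73.9 CPM (-0.11) and upper cortex 58.2 and 40.8 against 36.3 and 42.1 CPM (-0.33), both with overlap. The differences between these cortical regions were not tested. Without the cluster led by immune genes, which made up 20 of 353 and 13 of 282 spots of middle cortex in control and 194 of 337 and 378 of 414 in rNLS8, the fold was -0.54 with an edgeR adjusted p of 0.308. The call also did not hold without rNLS8 replicate 1 or 2 (edgeR adjusted p = 0.172 and 0.356). Over the whole cortex Gabra5 read 78.2 and 70.5 against 57.1 and 57.1 CPM (-0.38, edgeR adjusted p = 0.207).

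Gabrb2, a beta subunit gene of synaptic receptors, lay on the opposite side. It read 23.5 and 34.8 CPM in control cortex and 47.6 and 42.4 in rNLS8. The groups did not overlap, but the log2 fold change of 0.62 (SE 0.22) had an edgeR adjusted p of 0.176. In upper cortex it read 26.9 and 34.97 against 52.5 and 52.8 CPM (0.75, edgeR adjusted p = 0.136), and in the striatum the groups overlapped, at 16.5 and 23.2 against 35.6 and 21.9 CPM (0.56). Gabrb2 was higher without overlap in 8 of 10 regions, where 18.6% to 28.9% of all genes were, and it passed the test in none of them. At the glial surface and in the meninges control replicate 1 had 0 UMI of it.

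**Figure D3:**
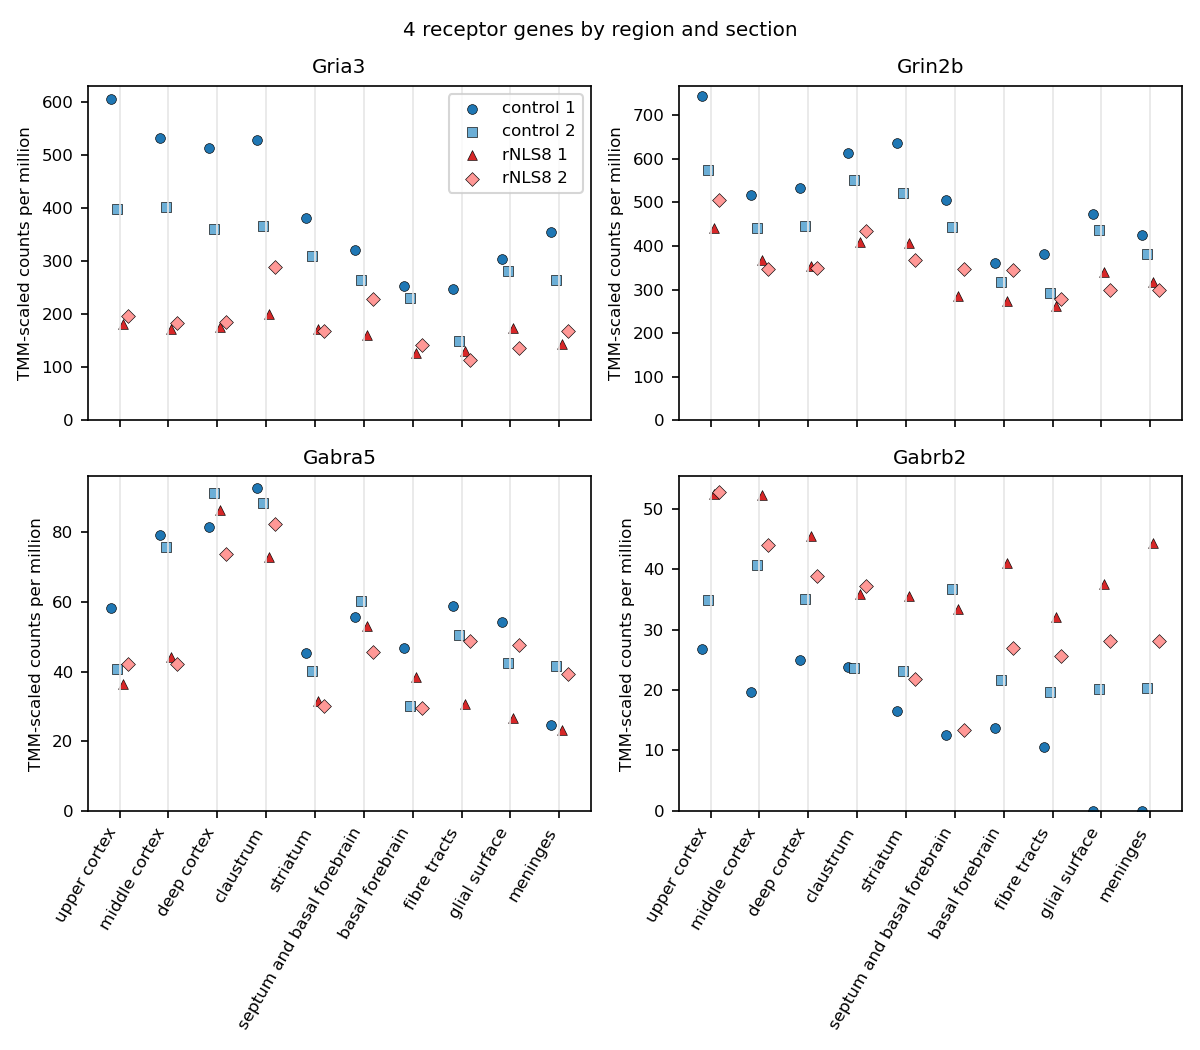
CPM of Gria3, Grin2b, Gabra5 and Gabrb2 in 10 regions, with 1 point per section and linear axes from 0. Gria3 lies lower in both rNLS8 sections in 10 of 10 regions, Grin2b in 9 of 10, Gabra5 in 5 of 10, and Gabrb2 lies higher in 8 of 10. Among all genes, 18.4% to 26.6% were lower and 18.6% to 28.9% higher without overlap in a given region.

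The remaining alpha, beta, gamma and delta subunit genes were not called. Gabra2, an alpha subunit of synaptic receptors on pyramidal neurons, was at 266 CPM in control replicate 1 of cortex and at 117, 121 and 141 CPM in the other sections. The groups overlapped, with a fold of -0.55 (edgeR adjusted p = 0.412). Gabra4, found in extrasynaptic receptors with the delta subunit, read 99.7 and 104 against 91.5 and 81.5 CPM in cortex (-0.24, edgeR adjusted p = 0.394). In striatum Gabra4 read 137 and 171.5 against 118 and 103 CPM (-0.48, edgeR adjusted p = 0.260). The Gabra4 groups did not overlap in either region, but in cortex this rested on the scaling. In unscaled UMI per 1000000 they overlapped in cortex, at 91.45 and 102.6 against 96.16 and 85.6. They stayed apart in striatum, at 128.6 and 167.9 against 121.8 and 107.6. Gabrb1 (86.1 and 80.5 against 65.6 and 81.2 CPM, -0.18) and Gabrd (134 and 105 against 128 and 86.8 CPM, -0.16), encoding the delta subunit, overlapped in cortex. Gabra2, Gabra4 and Gabrb1 are neighbours on chromosome 5 with Gabrg1 (chr5:70751047-72149572), and each had a cortical fold below 0. The annotations of Gabra4 and Gabrb1 overlap at their ends, and where the probes of these genes lie is not given in the sources used here. Gabrg3 had too few counts for a stable fold (-0.88, SE 0.99). Gabra3 had 3, 12, 12 and 5 UMI in the whole sections and Gabrg1 14, 52, 22 and 23, and Gabra6, known from cerebellar granule cells, had 0 in all.

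The GABA-B receptor genes were not called. Gabbr1, which binds GABA, read 1749 and 1138 CPM in control cortex and 1199 and 911 in rNLS8, with overlap (-0.45, SE 0.24, edgeR adjusted p = 0.340). Gabbr2, which carries the coupling to G proteins, read 566 and 487 against 442 and 460.5 CPM without overlap (-0.22, edgeR adjusted p = 0.425). That separation rested on the scaling. In unscaled UMI per 1000000 the Gabbr2 groups overlapped in cortex, at 519.1 and 479.4 against 464.0 and 483.6. The ratio of the pair overlapped in cortex and in the whole section.

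Set side by side, the glutamate and GABA receptor genes are given by the signs of their folds in cortex; the difference between them was not tested. Of 24 glutamate genes tested, 14 had a fold above 0 and 10 below, with a median of 0.04. Of 12 GABA genes, 2 were above 0 and 10 below, with a median of -0.23, while the median of all 12329 genes was 0.02 and 48.1% of them were below 0. With 1 section left out at a time, the cortical medians ran from -0.132 to 0.161 for glutamate and from -0.381 to -0.141 for GABA genes. Both ranges come from the same sections, so whether they overlap does not measure a difference between the classes. Without overlap, 8 of the 36 members were higher, beside 28.9% of all genes, and 12 were lower, beside 26.4% of all genes, so both shares are near the background. Striatum gave medians of -0.04 and -0.32 and called no member, with 8 of 36 members at an unadjusted p under 0.05 by edgeR beside 15.4% of all genes. The whole section gave medians of 0.01 and -0.33, and 7 of 39 members reached an unadjusted p under 0.05 by edgeR, 1 higher and 6 lower, beside 15.6% of all genes; DESeq2 called 526 genes and 2 members, Gria3 among them.

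**Figure D4:**
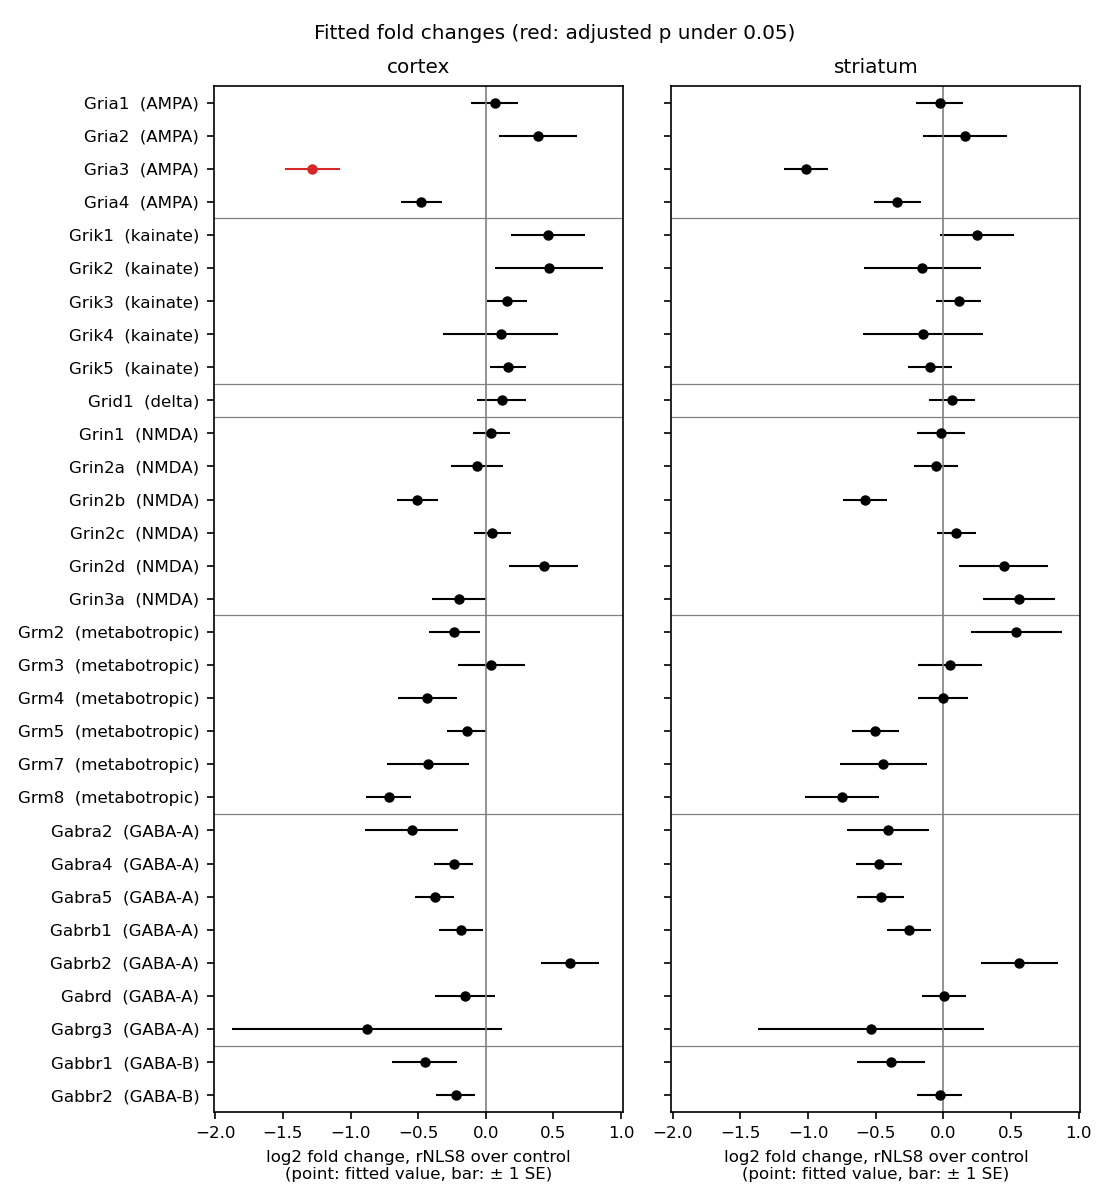
Log2 fold change (rNLS8 over control) of 31 of the tested receptor genes, by family, with 1 SE as bars, in cortex and striatum; red marks an adjusted p under 0.05. In cortex Gria3 lies lowest at -1.28, the 5 kainate genes lie above 0, and 8 of the 9 GABA genes drawn lie below 0.

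The deposited spatial score, Moran's I, which is high when neighbouring spots have similar levels, was available for 26 members detected in at least 10% of spots of each section. None was called by limma, beside 0.0316% of 6321 genes. Gria3 scored 0.101 and 0.0678 in control and 0.0681 and 0.0489 in rNLS8, a difference of -0.03, and the median difference of all genes was -0.01. Gria4 scored 0.0338 and 0.0333 against 0.0121 and -0.0027, and Grm4 0.0541 and 0.0977 against 0.118 and 0.121, both with a limma adjusted p of 0.335. The groups did not overlap for those genes.

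Genes whose products work with the receptors were taken from lists by role. Of 20 AMPA auxiliary and anchoring genes, 1 fell in cortex and none rose, where 1.26% of all genes were called and 0.73% were called lower: Nptx2, a secreted pentraxin that gathers AMPA receptors on interneurons, went from 37.7 and 37.4 CPM to 11.4 and 11.7 (-1.70, edgeR adjusted p = 0.0264). The list's median was -0.29, and Cacng7, a TARP subunit, had the largest positive fold (207 and 219 against 373 and 318 CPM, edgeR adjusted p = 0.0737). Of 8 kainate and delta receptor partners, 2 fell: Cbln2 (102 and 102 against 44.0 and 54.9 CPM, -1.04, edgeR adjusted p = 0.0431) and Cbln4 (62.3 and 54.7 against 16.0 and 7.37 CPM, -2.31, edgeR adjusted p = 0.0390). Both are cerebellins, secreted proteins that bridge neurexins to postsynaptic receptors. Of 9 tested metabotropic signalling genes, Rgs4, which shortens G protein signalling, fell from 1193 and 912 to 456 and 319 CPM (-1.44, edgeR adjusted p = 0.0422).

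The lists for the excitatory scaffold, the inhibitory synapse and the GABA-B partners had no call in cortex. The 23 excitatory scaffold genes had a median of -0.39, with 18 below 0 and 16 lower without overlap, beside 26.4% of all genes; the lowest was Camk2b (1648 and 1566 against 1078 and 985 CPM, -0.64, edgeR adjusted p = 0.0825). The 16 genes of the inhibitory synapse had a median of 0.01, with 8 above 0 and 8 below; the highest was Clptm1 (0.44). The 8 GABA-B partners had a median of 0.13; Kctd16, an auxiliary subunit, read 497 and 502 against 312 and 276 CPM (-0.77, edgeR adjusted p = 0.0584). At an unadjusted p under 0.05 (edgeR) in cortex stood 10 of the scaffold genes, 1 of the inhibitory synapse and 2 of the GABA-B partners, beside 20.5% of all genes. In striatum the single partner gene called was Itpr1, the calcium release channel downstream of group I metabotropic receptors (242 and 246.5 against 120 and 94.8 CPM, -1.17, edgeR adjusted p = 0.0377). Over whole sections no partner gene was called.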

How the data were processed

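UMI counts were used as deposited, unnormalized, for each spot under tissue; the authors made them with Space Ranger 2.1.0, per the file headers, on build mm10, per the labels. Which probe set was used was not stated. Of the authors' table of spatial statistics, deposited per section, the score (Moran's I) was used. Its p-value and its signal, a mean scaled count per spot as given per the file headers, were left aside. Other deposited files hold barcodes, gene names and array positions.

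Spots with at least 500 UMI were clustered in scanpy 1.11.5 with leidenalg 0.10.2 (resolution 1, 2000 variable genes, 30 components, 15 neighbours). Counts were summed per section and region with at least 50 spots in each section and tested in edgeR 4.0.16 (TMM, filterByExpr, quasi-likelihood), with Benjamini-Hochberg adjustment over all genes and a threshold of 0.05. Of the 42 members, 39 passed the filter on low counts over whole sections and 36 in cortex and in striatum. A member passing through 1 group only is not representative of all. Moran's I was compared in limma 3.58.1, over genes detected in at least 10% of spots. Spots are not replicates. Levels of different genes are not compared, since probes differ.

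The members and lists were chosen with earlier results of these data known. Named genes are members called anywhere, those with the largest rise and fall per family in cortex or whole section at a mean of at least 10 CPM, and 3 with the widest spread over regions. Alternatives were DESeq2 1.42.0, upper-quartile scaling, other filters and resolutions, and leaving out each section; the scripts were tested on simulated data. Some receptor genes and partner genes, and 1 list of partner genes, are not reported here.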

Additional observations from a re-analysis of the deposited data

How the results depend on the processing

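Having 2 sections a group limits the precision: leaving out a section assumes that the lone section varies like the other group. The share of all genes called under the same setting is not given beside the counts of called members below. Whether members were called more often than other genes therefore cannot be read from those counts. Counts of called members moved most when a section was left out, from 0 to 6 over whole sections, 0 to 13 in cortex (13 without control replicate 2, 6 without control replicate 1, 0 without either rNLS8 section), 0 to 8 in striatum, 0 to 11 in upper, 1 to 11 in middle and 1 to 8 in deep cortex, 0 to 5 at the glial surface, 0 to 3 for cortex against striatum and 0 to 4 for cortex against all other spots. DESeq2 called 2 members over whole sections, 2 in cortex, 3 in striatum, 2 in upper and 2 in deep cortex, and gave no adjusted p for Gria3 at the glial surface. Upper-quartile scaling called 0 in cortex and 0 at the glial surface. Without a filter on low counts, 1, 2 and 3 were called in whole section, cortex and striatum, 2 for cortex against striatum and 1 for cortex against all other spots. A minimum of 50 UMI and Leiden resolution 0.5 each called 1 in striatum. Same-numbered sections share their number and their sex label, so the block is also one on labelled sex; their deviations correlated at -0.01 to -0.09. With the replicate number as a block (replicate block), 1 was called in striatum, 1 in middle cortex, 2 in deep cortex and 0 at the glial surface, and Gria3 had an adjusted p of 0.00403 in cortex. Without the cluster led by immune genes, 0 were called in cortex and 1 in middle cortex. The alternatives on rim spots, the immune-led and claustrum clusters and those of upper, middle and deep cortex and glial surface were chosen after seeing the data.

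Medians over sections left out ran from -0.182 to 0.081 (glutamate) and -0.298 to -0.083 (GABA) over whole sections, from -0.132 to 0.161 and -0.381 to -0.141 in cortex, and from -0.211 to 0.083 and -0.353 to -0.003 in striatum, where the GABA median was -0.225 with at least 50 UMI and -0.185 with the block. Ratio differences changed sign when a section was left out for Gabbr1 to Gabbr2 (-0.732 to 0.021 over whole sections and -0.441 to 0.015 in cortex). Those of Gria3 to Gria2 ran from -2.45 to -0.997 in cortex. Of 537 values of named members in whole section, cortex and striatum, 22 changed sign. The causes were not tested.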
